A study of Mus musculus with 8 samples.

Results

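The proneural and intermediate progenitor factors described here were 9 genes, Neurog1, Neurog2, Neurod1, Neurod4, Eomes, Insm1, Btg2, Gadd45g and Elavl2. They were taken by symbol from a table of counts for 32499 genes, and all 9 had a row in it. Gene expression was measured by total RNA sequencing in neural progenitor cells of mouse embryos at embryonic day 14, sorted from the dissociated neural tube with a fluorescent dye (NeuroFluor CDr3) that binds the radial glia protein FABP7. There were 4 libraries labelled 53BP1KO and 4 labelled Ctrl, all of strain C57BL/6. The 53BP1KO embryos came from Trp53bp1tm1Jc mothers and from fathers carrying in-frame deletions in 53bp1 that had been made by Cas9 injection, and the Ctrl embryos were wild type, per the labels' protocols. Those protocols mention both immediate analysis and culture in a differentiation medium, without saying which applied to a library. Nothing in the labels says that the replicates were separate embryos, so the p-values measure how these libraries vary, and that variation may be technical.

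Proneural factors are basic helix-loop-helix (bHLH) transcription factors that commit a neural progenitor to a neuronal fate. They bind DNA at E-box motifs as dimers with E proteins, and are held in check by HES repressors downstream of Notch and by ID proteins, which sequester the E proteins. In the developing cerebral cortex, NEUROG2 and NEUROG1 act in radial glia. Their daughter cells, the intermediate progenitors, express EOMES (also called TBR2) and INSM1, and NEUROD1 follows as these cells turn into neurons. BTG2 and GADD45G are linked to cell cycle exit, and ELAVL2 is an RNA-binding protein of young neurons.

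The libraries held between 11081419 and 24339621 counts in the 53BP1KO group and between 15343046 and 18189045 counts in the Ctrl group. Trp53bp1 had between 19.2 and 33.8 CPM (the count relative to library size, after TMM scaling) in the 53BP1KO libraries and between 26.4 and 27.2 CPM in the Ctrl libraries. The ranges overlapped, and counts over a whole gene do not check a label that names in-frame deletions. Xist had at most 16 counts in a 53BP1KO library and at least 23853 in a Ctrl library, and 4 Y-linked genes together had at least 2380 counts in a 53BP1KO library and at most 21 in a Ctrl library. Group and sex thus coincided in all 8 libraries, and an effect of the 53BP1 genotype and one of sex cannot be told apart in any result here. The progenitor markers were abundant in both groups: Fabp7 averaged 7793 ± 1269 CPM in 53BP1KO and 7591 ± 1014 CPM in Ctrl libraries (SD, n = 4 each), and Pax6 averaged 32.3 ± 3.52 and 22.7 ± 3.73 CPM. Of 10 progenitor genes 4 were called higher and 4 lower, beside 16.1% higher and 13.9% lower of all genes tested. Those higher included Sox2 (log2 fold change 0.78, SE 0.10) and Msi1 (0.87, SE 0.14), and those lower included Nes (-0.90, SE 0.13) and Vim (-0.39, SE 0.09). The number lower was 2 without 53BP1KO 1 or 53BP1KO 4.

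The comparison asks how these factors differ between progenitors of 53BP1 knockout and wild-type embryos. Neurod1 was lower in every 53BP1KO library than in any Ctrl library, by 5.30-fold. No difference was called for Btg2, Insm1, Gadd45g, Elavl2 or Neurod4, which were measured deeply enough to be tested. Neurog1, Neurog2 and Eomes had between 0 and 9 counts in each library and were too scarce for the test across genes.

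Of the 9 factors, 6 passed the filter on low counts and were tested with edgeR (quasi-likelihood), taking an adjusted p under 0.05 over 15021 genes (Benjamini-Hochberg) as the threshold. Of these 6, 0 were called higher and 1 was called lower, and at an unadjusted p under 0.05 the numbers were 0 and 2. Of all genes tested 30.0% were called, 16.1% higher and 13.9% lower, so 1 lower call among 6 genes is near the share of all genes. DESeq2 also called 0 higher and 1 lower, and limma voom called 0 higher and 2 lower. The median log2 fold change of the 6 was -0.36, beside 0.00 for all genes tested.

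**Figure D1:**
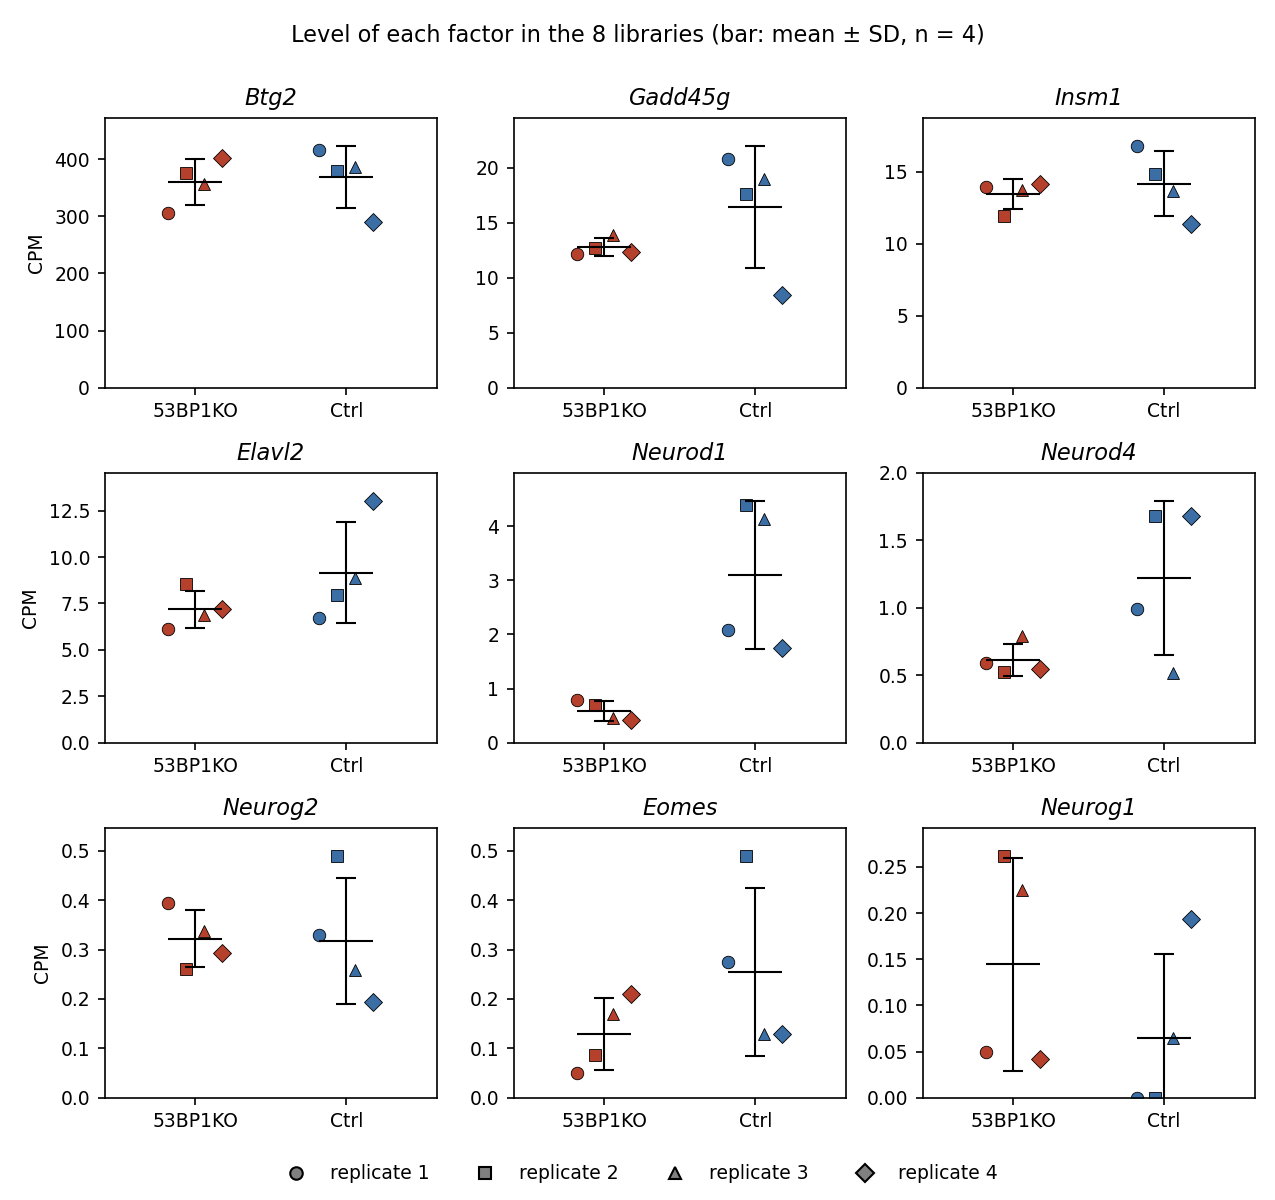
Normalised level in CPM (y axis, linear, from 0) of each of the 9 factors in the 4 53BP1KO libraries (left) and the 4 Ctrl libraries (right), with the mean and SD of each group as a bar; marker shape gives the replicate number, and the SD bar of Neurog1 in Ctrl is cut at 0. Neurod1 is the factor with no overlap between the groups. Ctrl 4 is the lowest Ctrl library for Btg2, Gadd45g, Insm1, Neurod1 and Neurog2 and the highest for Elavl2 and Neurog1.

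Neurog1 and Neurog2, the factors at the start of the proneural cascade, were close to the limit of detection. Neurog1 had 1, 3, 4 and 1 counts in 53BP1KO libraries 1 to 4, and 0, 0, 1 and 3 counts in Ctrl libraries 1 to 4. Both groups averaged fewer than 3 counts per library, and no fold is given. Neurog2 had 8, 3, 6 and 7 counts in the 53BP1KO libraries, against 6, 9, 4 and 3 counts in the Ctrl libraries. The groups overlapped, and the ratio of the depth-scaled sums of counts was 1.01 (exact 95% interval 0.54 to 1.88, which covers counting error only). The mean CPM of the 2 groups gave p = 0.914 for Neurog2 and p = 0.229 for Neurog1 in an exact two-sided permutation test over the 8 libraries, unadjusted, where the smallest p possible is 0.0286.

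Eomes, the T-box factor that defines intermediate progenitors of the cortex, was as scarce. It had 1, 1, 3 and 5 counts in the 53BP1KO libraries and 5, 9, 2 and 2 counts in the Ctrl libraries. The ratio of the depth-scaled sums was 0.51 (exact 95% interval 0.21 to 1.17, counting error only), and the exact two-sided permutation test of the mean CPM gave p = 0.229. The groups overlapped, with Ctrl 3 and Ctrl 4 inside the range of the 53BP1KO libraries. Without a filter on low counts, edgeR gave adjusted p-values of 0.624 for Neurog1, 0.974 for Neurog2 and 0.615 for Eomes over 30508 genes.

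The level of these 3 genes was set beside that of 1416 genes for olfactory and vomeronasal receptors, whose known site of expression is the nose. This comparison was chosen after the counts had been seen, and levels are in CPM per kilobase of exon, so that genes of different length can be compared. Neurog1 lay above the 95th percentile of the receptor genes in 3 of 4 53BP1KO libraries and 0 of 4 Ctrl libraries, on 1 to 4 counts per library in 53BP1KO and 0 to 3 in Ctrl. That percentile was taken within each library, and ran from 0.0163 to 0.126 CPM per kb in 53BP1KO and from 0.0702 to 0.134 in Ctrl. Neurog1 thus passed on 1 count in 53BP1KO 1 (percentile 0.0163) and did not pass on 3 counts in Ctrl 4 (percentile 0.122). Eomes lay above the percentile in 1 library of each group, and Neurog2 in 3 of each group. The other 6 factors lay above it in all 8 libraries. Averaged over all libraries, 4.8% of the receptor genes were at or above the level of Neurog1, 6.57% at or above that of Eomes and 0.706% at or above that of Neurog2. Between 7.49% and 40.0% of the receptor genes had at least 1 count in the 53BP1KO libraries, and between 32.9% and 61.1% in the Ctrl libraries. The share was lowest in 53BP1KO 1.

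**Figure D2:**
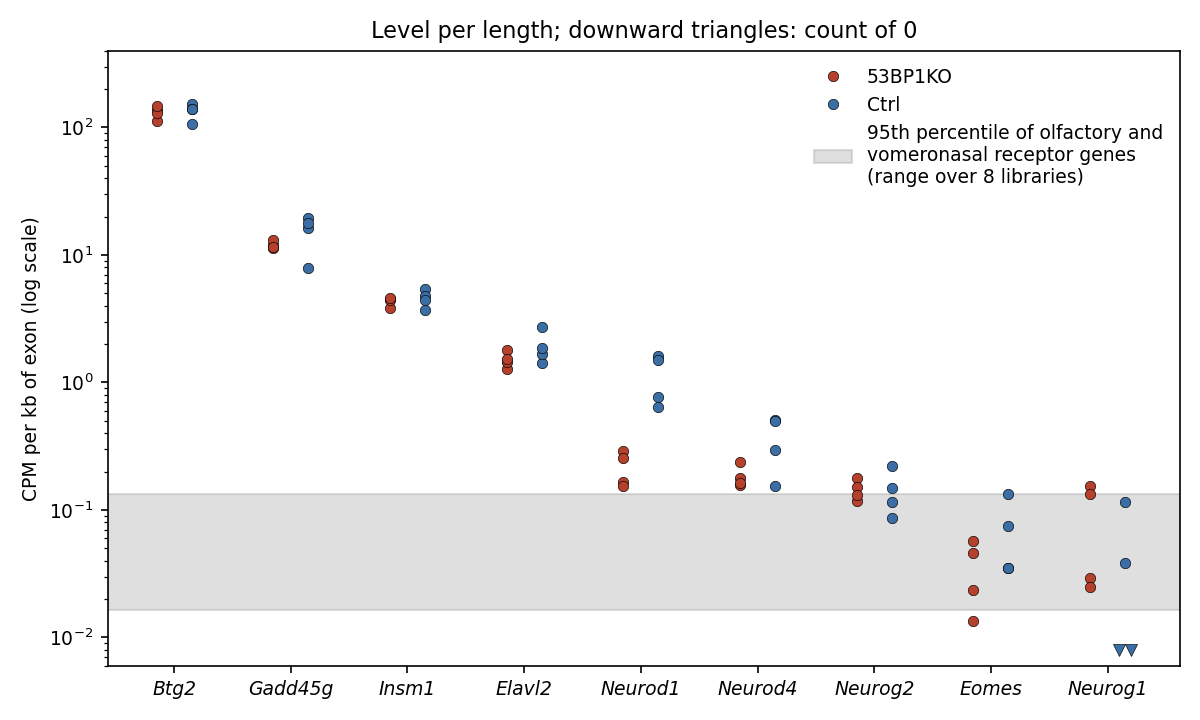
Level per kilobase of exon (y axis, CPM per kb, log scale) of each factor in each 53BP1KO library (left of each pair) and each Ctrl library (right); downward triangles at the foot mark a count of 0 and the grey band gives the range over the 8 libraries of the 95th percentile of receptor genes. Btg2 lies highest, near 130 CPM per kb, Neurod1 lies beside Neurod4 in the 53BP1KO libraries and beside Elavl2 in the Ctrl libraries, and Eomes and Neurog1 lie largely within the band.

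Per kilobase of exon, the levels spanned more than 3 orders of magnitude. In the Ctrl libraries the means ran from Btg2 (134.2 CPM per kb) through Gadd45g (15.3), Insm1 (4.57), Elavl2 (1.92), Neurod1 (1.13), Neurod4 (0.364), Neurog2 (0.142) and Eomes (0.0691) to Neurog1 (0.0383). Among neighbours in that order, Elavl2 and Neurod1 overlapped between libraries, as did each pair from Neurod4 to Neurog1, while the others did not. In the 53BP1KO libraries Neurod1 averaged 0.216 CPM per kb, with a range of 0.154 to 0.289 that overlapped those of Neurod4 (0.156 to 0.236) and Neurog2 (0.117 to 0.177) and lay apart from that of Elavl2 (1.28 to 1.79). Exon lengths were taken from an annotation of another genome build than the counts.

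Neurod1, the bHLH factor that drives the late steps of neuronal differentiation, had 16, 8, 8 and 10 counts in 53BP1KO libraries 1 to 4, or 0.787, 0.697, 0.451 and 0.419 CPM. In Ctrl libraries 1 to 4 it had 38, 81, 64 and 27 counts, or 2.08, 4.40, 4.13 and 1.75 CPM. All 4 53BP1KO libraries lay below all 4 Ctrl libraries, and within the Ctrl group libraries 2 and 3 were higher than libraries 1 and 4. The mean was 0.589 ± 0.181 CPM in 53BP1KO and 3.09 ± 1.37 CPM in Ctrl (SD, n = 4 each), a log2 fold change of -2.40 (95% interval -3.22 to -1.59, SE 0.38; edgeR adjusted p 0.000285). Of all genes tested 29.9% had no overlap between the groups, and 13.9% had all 53BP1KO libraries below all Ctrl libraries. The call held with each library left out in turn, with log2 fold changes between -2.61 and -2.19. In bulk RNA, fewer cells that express a gene and less of its RNA per cell cannot be told apart.

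Set against Insm1 of the same library, which needs no scaling between libraries, Neurod1 had 5.63%, 5.84%, 3.28% and 2.96% of the count of Insm1 in the 53BP1KO libraries. In the Ctrl libraries it had 12.4%, 29.6%, 30.2% and 15.3%. The ratio separated the groups as the CPM did. It uses the same counts of Neurod1, and Insm1 differed little between the groups (log2 fold change -0.07), so it is no separate support. The ratios of Neurod4, Gadd45g and Elavl2 to Insm1 overlapped between the groups.

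Neurod4, a close relative of Neurod1 that acts in the same cascade, had 12, 6, 14 and 13 counts in the 53BP1KO libraries (0.590, 0.523, 0.789 and 0.545 CPM). In the Ctrl libraries it had 18, 31, 8 and 26 counts (0.987, 1.68, 0.516 and 1.68 CPM). Ctrl 1, 2 and 4 lay above all 53BP1KO libraries, and Ctrl 3 lay below all of them. The log2 fold change was -0.98 (95% interval -1.88 to -0.09, SE 0.42; edgeR adjusted p 0.0908), which did not pass. Without Ctrl 3 it was -1.23 and passed (adjusted p = 0.0368), and the adjusted p ran from 0.0368 to 0.251 over 15 alternatives. Ctrl 3 was thus high for Neurod1 and low for Neurod4.

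The 250 bases before the start sites of Neurod1, Neurod4 and Gadd45g are shown 5′ to 3′, from RefSeq on GRCm38.p6, another build than that of the counts: Neurod1 as the factor that was called, Neurod4 (the upstream of its 2 start sites) as its relative and Gadd45g as the factor with the most E-boxes in this window. Capitals mark each E-box, searched as CANNTG on both strands.
Neurod1, chr2:79456637-79456886, - strand: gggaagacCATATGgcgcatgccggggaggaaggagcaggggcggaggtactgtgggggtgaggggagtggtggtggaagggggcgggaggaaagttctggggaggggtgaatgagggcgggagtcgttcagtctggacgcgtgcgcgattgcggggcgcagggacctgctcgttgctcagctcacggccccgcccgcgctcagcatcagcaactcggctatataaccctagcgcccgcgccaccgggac
Neurod4, chr10:130280255-130280504, - strand: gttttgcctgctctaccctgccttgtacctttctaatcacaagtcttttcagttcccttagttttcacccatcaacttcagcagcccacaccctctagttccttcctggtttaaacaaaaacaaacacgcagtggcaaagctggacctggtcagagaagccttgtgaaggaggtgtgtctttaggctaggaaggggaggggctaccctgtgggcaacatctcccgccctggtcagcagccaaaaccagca
Gadd45g, chr13:51846425-51846674, + strand: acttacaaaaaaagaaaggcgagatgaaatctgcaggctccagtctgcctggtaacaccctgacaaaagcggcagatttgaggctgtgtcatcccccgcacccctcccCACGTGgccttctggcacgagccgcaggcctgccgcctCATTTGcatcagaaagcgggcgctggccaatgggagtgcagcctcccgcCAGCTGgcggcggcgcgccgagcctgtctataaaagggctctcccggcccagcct
Neurod1 had 1 E-box, CATATG, starting 242 bases before the start site, and Neurod4 had 0. Gadd45g had 3, starting 142, 104 and 55 bases before its start site, among them 1 match to CACGTG and 1 to CAGCTG. Both of these 6-letter motifs are themselves cases of CANNTG. Of 32851 such windows in the table, 66.2% held CANNTG, 13.0% held CAGCTG, 14.4% held CAGATG and 6.02% held CACGTG. Neurog1, Neurog2, Eomes, Btg2 and both windows of Neurod4 had 0 matches to CANNTG, and Elavl2 had 1 match in 3 of its 6 windows. Of the 9 factors, 8 had a window in the table.

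Insm1, a zinc-finger repressor that promotes the formation of intermediate progenitors, differed little between the groups. It had 14.0, 11.9, 13.8 and 14.2 CPM in the 53BP1KO libraries, against 16.8, 14.9, 13.7 and 11.4 CPM in the Ctrl libraries. The groups overlapped, and Ctrl 4 was the lowest of the 8 libraries. The log2 fold change was -0.07 (95% interval -0.35 to 0.21, SE 0.13; edgeR adjusted p 0.717), so that a change beyond 0.35 on the log2 scale in either direction lay outside the interval.

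Btg2, an antiproliferative gene that marks progenitors undergoing neurogenic divisions, was the most abundant of the 9 factors per length of exon. It had 305.8, 375.5, 356.4 and 401.7 CPM in the 53BP1KO libraries, against 416.6, 379.8, 386.0 and 290.4 CPM in the Ctrl libraries. The groups overlapped throughout, with the lowest value in Ctrl 4 and the highest in Ctrl 1. The log2 fold change was -0.03 (95% interval -0.28 to 0.22, SE 0.12; edgeR adjusted p 0.858). The direction of so small a difference changed with the filter and with the libraries used.

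Gadd45g, a growth arrest gene switched on in committed progenitors, depended on 1 library. It had 12.2, 12.7, 13.9 and 12.3 CPM in the 53BP1KO libraries, against 20.8, 17.6, 19.0 and 8.41 CPM in the Ctrl libraries. Ctrl 1 to 3 lay above all 53BP1KO libraries and Ctrl 4 below all of them. Over all libraries the log2 fold change was -0.37 (95% interval -0.81 to 0.08, SE 0.21; edgeR adjusted p 0.203). Without Ctrl 4 it was -0.59 and passed the threshold (adjusted p = 0.000646). It also passed with limma voom, which down-weights divergent libraries (-0.47, adjusted p = 0.0197). The adjusted p ran from 0.000646 to 0.451 over the 16 alternatives.

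Elavl2, which encodes the RNA-binding protein HuB of young neurons, ran the other way in that library. It had 6.10, 8.54, 6.88 and 7.21 CPM in the 53BP1KO libraries, against 6.74, 7.98, 8.90 and 13.0 CPM in the Ctrl libraries. The groups overlapped except for Ctrl 3 and Ctrl 4, which lay above all 53BP1KO libraries. The log2 fold change was -0.35 (95% interval -0.76 to 0.05, SE 0.19; edgeR adjusted p 0.180), and -0.15 without Ctrl 4.

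**Figure D3:**
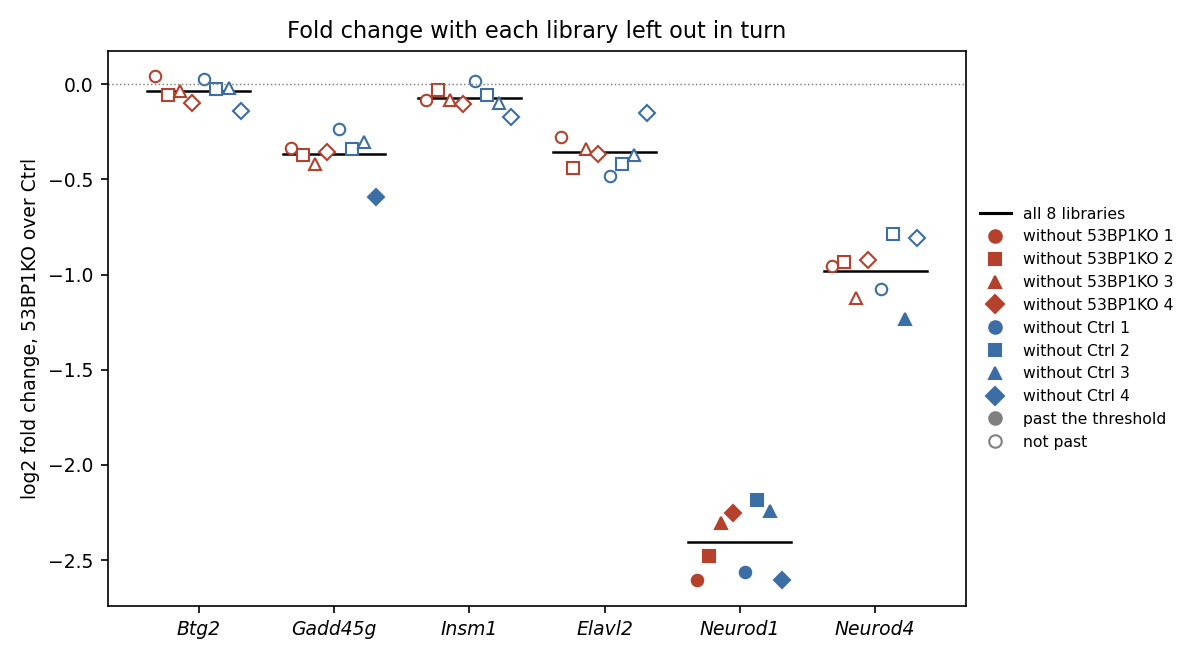
Log2 fold change of 53BP1KO over Ctrl (y axis) for the 6 tested factors with each library left out in turn; the black line is the value over all 8 libraries, red markers leave out a 53BP1KO library and blue ones a Ctrl library, and filled markers passed the adjusted threshold. Neurod1 stays between -2.61 and -2.19 and is filled throughout, while Gadd45g is filled without Ctrl 4 and Neurod4 without Ctrl 3.

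Markers of other cell types also differed between the groups, and their part in the results above was not tested. The 8 mesenchymal markers summed to between 20.2 and 27.2 CPM in the 53BP1KO libraries and between 43.3 and 98.0 CPM in the Ctrl libraries, with the highest sum in Ctrl 4. Of the 6 that could be tested 4 were lower and 1, Twist1, was higher. The 6 skeletal muscle markers summed to between 22.8 and 25.3 CPM in 53BP1KO and between 36.7 and 48.0 CPM in Ctrl libraries, and 2 of 4 tested were lower. The 6 endothelial markers summed to between 2.56 and 5.40 CPM in 53BP1KO and between 5.97 and 13.3 CPM in Ctrl libraries, with 1 of 2 tested lower. Beside these small counts of calls, 16.1% of all genes tested were called higher and 13.9% lower.

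Neurod1 and the neurogenins also act in other lineages. Of 9 markers of peripheral sensory neurons, 2 of the 5 tested were higher, beside 16.1% of all genes tested. P2rx3 averaged 80.6 ± 14.5 CPM in 53BP1KO and 2.60 ± 1.07 CPM in Ctrl libraries, and Avil 3.94 ± 0.962 and 1.88 ± 0.323 CPM (SD, n = 4 each). The 9 markers summed to between 72.9 and 107.0 CPM in 53BP1KO and between 7.02 and 9.89 CPM in Ctrl libraries. In the 53BP1KO libraries P2rx3 made up most of that sum. The defining marker Prph averaged 0.261 CPM in 53BP1KO and 0.176 CPM in Ctrl libraries. Of the 8 neuroendocrine markers 1 of 4 tested was higher, Chgb, Ins1 was at 0 in every library, and their sum lay between 10.4 and 13.1 CPM in 53BP1KO and between 6.00 and 15.8 CPM in Ctrl libraries. The sums were between 0.246 and 1.92 CPM in 53BP1KO and between 0.932 and 2.28 CPM in Ctrl libraries for 7 retinal markers. They were between 0.541 and 3.83 CPM in 53BP1KO and between 1.75 and 5.32 CPM in Ctrl libraries for 7 microglial markers. For the 5 erythroid markers found in the table they were between 0.293 and 0.958 CPM in 53BP1KO and between 0.451 and 1.09 CPM in Ctrl libraries. Of these markers Hba-a1 and Hba-a2 were at 0, and the listed Hbb-b1 and Hbb-b2 had no row in the table. The erythroid sum thus holds no count from these globin genes. No retinal or erythroid marker described here was abundant enough to be tested. Of the microglial markers 1, Ptprc, was tested and edgeR called 0; at an unadjusted p under 0.05 Ptprc was lower, limma voom called it and DESeq2 did not.

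Cycling cells, which include most intermediate progenitors, express the genes of cell division. All 10 cell cycle genes listed were called lower in the 53BP1KO libraries, beside 13.9% of all genes tested. Among them were Ccne2 (log2 fold change -2.15, SE 0.18), Mki67 (-1.01, SE 0.11), Mcm5 (-1.05, SE 0.13) and Pcna (-0.78, SE 0.10). The sum of the 10 lay between 2802 and 3580 CPM in 53BP1KO and between 5271 and 6382 CPM in Ctrl libraries. Among these libraries, neither Btg2 nor Insm1 was called.

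Of 13 other bHLH factors of neuronal commitment described here, 2 could be tested, and edgeR called 0 of them, also at an unadjusted p under 0.05, as did DESeq2 and limma voom. Bhlhe22, a factor of young neurons, averaged 4.04 ± 1.07 CPM in 53BP1KO and 4.63 ± 0.812 CPM in Ctrl libraries (SD, n = 4 each), and its log2 fold change was -0.18 (SE 0.21). Atoh8 averaged 0.683 ± 0.136 CPM in 53BP1KO and 0.903 ± 0.270 CPM in Ctrl libraries (SD, n = 4 each), with a log2 fold change of -0.39 (SE 0.38). The groups overlapped for both genes. Neurod6, a factor of postmitotic cortical neurons named here after its values were seen, was too scarce to be tested. It had 13 counts in all 53BP1KO libraries together and 38 in all Ctrl libraries, with no overlap in CPM. Of all genes tested, 13.9% had all 53BP1KO libraries below all Ctrl libraries. The groups overlapped for the other untested factors of this list, among them Neurod2 (18 counts in 53BP1KO and 20 in Ctrl).

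Among partners and antagonists of the proneural factors, the genes called were antagonists. Of 13 tested, 5 were higher and 1 was lower, beside 16.1% higher and 13.9% lower of all genes tested. The median log2 fold change of the 13 was 0.03. Id4, an inhibitor of bHLH dimerisation, averaged 32.1 ± 3.66 CPM in 53BP1KO and 14.5 ± 5.45 CPM in Ctrl libraries (SD, n = 4 each; log2 fold change 1.16, SE 0.20; edgeR adjusted p 0.000673). Its relative Id2 was higher (0.47, SE 0.12) and Id3 was lower (-0.50, SE 0.12), and Id1 had a log2 fold change of 0.01 (SE 0.12). The Notch target Hes5, a repressor of proneural genes, was higher (0.47, SE 0.14), but its call was lost without 53BP1KO 3, 53BP1KO 4, Ctrl 2 or Ctrl 3. The number of rises in the list became 2 without any of those 4 libraries and 3 without Ctrl 1. The number of falls became 2 without 53BP1KO 2 or Ctrl 1, with upper-quartile scaling or with a filter of 1 CPM, and 3 with limma voom. The E proteins Tcf3, Tcf4 and Tcf12, with which the proneural factors pair, had log2 fold changes of -0.29, -0.26 and -0.22 and did not pass.

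Genes downstream of proneural factors, or marking committed progenitors, gave calls in both directions. Of 18 tested out of 23, 1 was higher and 3 were lower, beside 16.1% higher and 13.9% lower of all genes tested. The median log2 fold change of the 18 was -0.21. Mfng, a glycosyltransferase that modifies Notch receptors, had 9.20, 8.62, 8.68 and 10.6 CPM in the 53BP1KO libraries, against 16.0, 12.7, 13.5 and 26.3 CPM in the Ctrl libraries (-0.87, SE 0.20; edgeR adjusted p 0.00433). The groups did not overlap, and Mfng passed with every library left out in turn. The Notch ligand genes Dll3 (-0.34, SE 0.10) and Dll4 (-0.86, SE 0.27) were lower, and Sox4 (0.32, SE 0.10), a factor of committed neuronal precursors, was higher. The call of Dll3 was lost without 53BP1KO 1 and without the filter on low counts (-0.28, edgeR adjusted p 0.0958), that of Dll4 without 53BP1KO 3, 53BP1KO 4, Ctrl 1, Ctrl 2 or Ctrl 3, and that of Sox4 without 53BP1KO 2, 53BP1KO 4, Ctrl 1, Ctrl 2 or Ctrl 3. The number of rises was 0 without 53BP1KO 2, 3 without Ctrl 4, and 2 with DESeq2, with limma voom or without the filter.

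**Figure D4:**
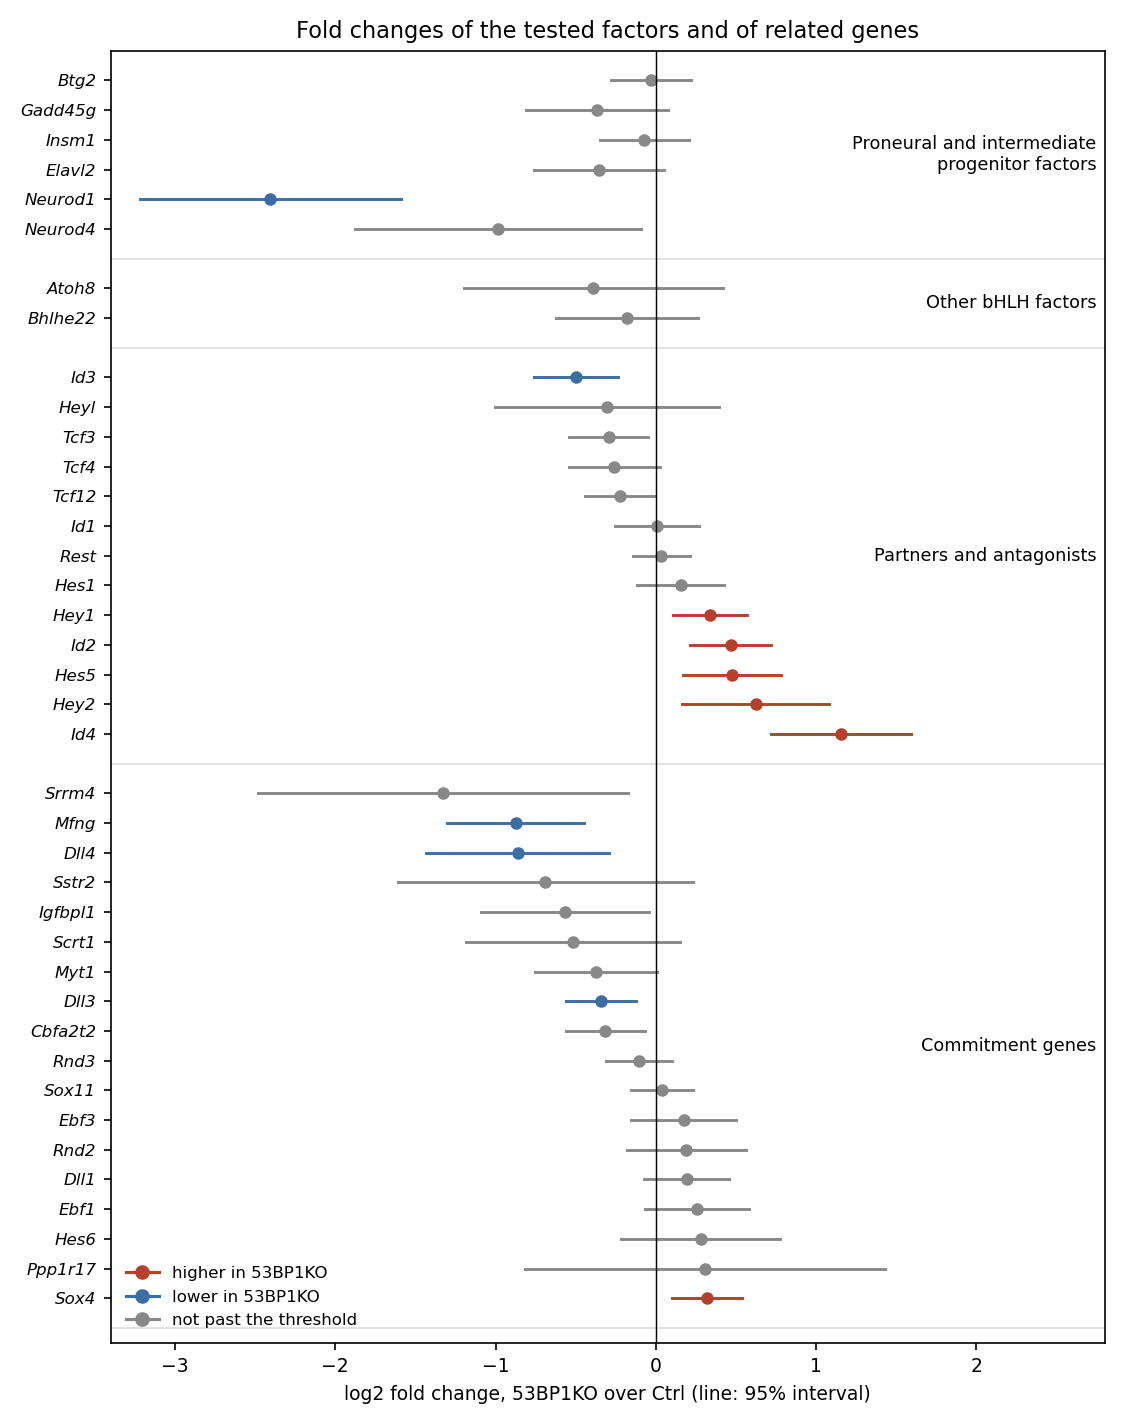
Log2 fold change of 53BP1KO over Ctrl (x axis) with its 95% interval for the 6 tested factors and for the tested genes of 3 related lists; red was called higher, blue lower and grey was not past the threshold. Neurod1 (-2.40) lies farthest from 0 of the genes shown, Id4 (1.16) lies farthest on the other side, and most intervals of the commitment genes include 0.

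Paralogs of the factors also gave calls in both directions. Of 10 tested, 2 were higher and 1 was lower, which is near the share of all genes tested (16.1% higher and 13.9% lower). Gadd45a, a relative of Gadd45g induced by DNA damage and other stresses, averaged 4.77 ± 0.396 CPM in 53BP1KO and 1.69 ± 0.298 CPM in Ctrl libraries (SD, n = 4 each), a log2 fold change of 1.50 (SE 0.20; edgeR adjusted p 5.71e-05). Btg1, a relative of Btg2, was higher (0.45, SE 0.11), and Elavl4, a relative of Elavl2 expressed in neurons, was lower (-0.52, SE 0.15); the call of Elavl4 was lost without 53BP1KO 4 and without the filter on low counts (-0.45, edgeR adjusted p 0.0554). Tbr1, the T-box relative of Eomes in postmitotic cortical neurons, averaged 0.700 ± 0.119 CPM in 53BP1KO and 0.790 ± 0.467 CPM in Ctrl libraries and did not pass.

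Genes of young postmitotic neurons also moved both ways, with 3 higher and 3 lower of 16 tested, beside 16.1% higher and 13.9% lower of all genes. The median log2 fold change of the 16 was -0.03. The microtubule-associated Dcx was higher (0.91, SE 0.27), as were Tubb3 (0.68, SE 0.23) and Mapt (0.54, SE 0.19). The synaptic genes Syt1 (-0.83, SE 0.15) and Snap25 (-1.16, SE 0.22) and the collapsin response mediator Crmp1 (-0.70, SE 0.22) were lower. The 3 rises became 1 without 53BP1KO 1, 53BP1KO 4, Ctrl 2 or Ctrl 3. The call of Crmp1 was lost without 53BP1KO 1, 53BP1KO 4 or Ctrl 4.

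The genes whose centred log2 CPM profile over the 8 libraries lay nearest to that of Neurod1, among the other 15020 genes tested, were Fam135b, Arhgap6 and Fst, the gene of the activin antagonist follistatin. Their root mean square differences from Neurod1 were 0.33, 0.35 and 0.36 on the log2 scale. Fam135b averaged 2.76 ± 0.665 CPM in 53BP1KO and 11.2 ± 2.35 CPM in Ctrl libraries, Arhgap6 averaged 1.04 ± 0.501 and 3.69 ± 1.21 CPM, and Fst averaged 0.386 ± 0.157 and 1.55 ± 0.477 CPM (SD, n = 4 each). This likeness describes 8 libraries that share the group difference. Neurod1 and Insm1 lie on chromosome 2, as does Trp53bp1. Of 1148 genes tested there 16.6% were higher and 12.6% lower, beside 16.4% and 14.1% of 12804 genes assigned to other chromosomes. Tested genes without an assigned chromosome were left out. These shares cover whole chromosomes and use no distance to Trp53bp1, so an effect on genes near it was not tested.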

How the data were processed

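The authors deposited whole-number counts of reads per gene. A stranded total RNA kit and paired ends were used, per the labels' protocols; CASAVA, HTSeq 0.6.1p1, mm9 and NCBIM37 are listed in the submitters' processing notes. Neither aligner nor strand setting is given in the sources used, so overlapping and antisense genes may share reads. After filterByExpr and TMM scaling, counts entered edgeR 4.0.16 (quasi-likelihood F test, R 4.3.3), after a test of the fit on simulated data. The SE is the log2 fold change divided by the square root of F. No pair of replicates agreed within sampling noise (chi-square per degree of freedom between 4.45 and 36.2). Exon lengths came from GENCODE M21, start sites and chromosomes from RefSeq, both GRCm38. Alternatives used DESeq2 1.42.0, limma 3.58.1, other scalings and filters, a replicate block and 8 fits without a library. Members and 16 lists were chosen with earlier results of these data known. The text names the 9 members, up to 4 called genes per list or the 2 most abundant, and the 3 nearest profiles. Some listed genes are not reported here, and Fabp7, Pax6, Id1, Tcf3, Tcf4, Tcf12, Tbr1, Prph and Neurod6 were added after their values were seen. Intervals on summed counts cover counting error only, since the labels name no molecular identifiers.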

Additional observations from a re-analysis of the deposited data

Results flagged for a closer look

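Among the 110 groups of 4 libraries examined for the genes named by rule, 9 held a library far from its other 3, where chance alone gives about 5%. None of the 9 was a value of the proneural and intermediate progenitor factors. In Ctrl 4, Dll4 had 2.85 CPM against at least 7.65 in the other Ctrl libraries, Mcm5 had 73.2 CPM against at most 56.6, Col3a1 had 54.0 CPM against at most 25.1 and Col1a1 had 16.2 CPM against at most 5.21. In 53BP1KO 4, Msi1 had 66.7 CPM against at most 45.6 in the other 53BP1KO libraries, and Mcm5 had 22.4 CPM against at least 30.6. Hes5 had 126.6 CPM in Ctrl 1 against at most 119.2 in the other Ctrl libraries. In Ctrl 2, Cx3cr1 had 0.977 CPM against at most 0.259, and Kdm5d had 0.109 CPM against 0 in the others.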

How the results depend on the processing

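The 6 tested factors gave 95 values under 16 alternatives, of which 88 kept their direction and their side of the threshold; Neurod4 fell below the filter of 1 CPM in 4 libraries. The number called lower was 2 with limma voom, where Gadd45g passed, and between 1 and 2 with a library left out; the number called higher was 0 under every alternative. The direction turned for Btg2 without a filter on low counts (0.029) and within its range over left-out libraries (-0.142 to 0.0437), and for Insm1 within its range (-0.172 to 0.0171), none of them called. The difference in mean CPM of Neurog2 turned to -0.00446 with upper-quartile scaling and lay between -0.0368 and 0.0614 with a library left out. The cause was not tested. Calls among all genes ran between 1753 and 2432 higher and between 1497 and 2193 lower with a library left out, and stood at 2879 higher and 1754 lower of 30508 without a filter. With upper-quartile scaling the balance turned, to 2131 higher and 2400 lower, and limma voom gave 3127 and 2974. Replicate numbers did not pair the libraries throughout: deviations of same-numbered libraries correlated by 0.28, 0.30, -0.15 and 0.00 for replicates 1 to 4. The best correlation with another number was 0.085, 0.063, 0.19 and 0.12. The same number thus gave the higher value for replicates 1 and 2 and the lower one for replicates 3 and 4. With the replicate block 2237 genes were higher and 1940 lower, 1 factor was lower, and Neurod1 had -2.28. Depth limits Neurog1, Neurog2 and Eomes, for which 3 counts in a library equal between 0.126 and 0.261 CPM.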
